A study of Rattus norvegicus with 24 samples.

Results

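The genes of intramuscular lipolysis and of the lipid droplet coat were examined in the medial gastrocnemius of 24 rats. The members were chosen by gene symbol as Pnpla2, Abhd5, Lipe, Mgll, G0s2, Plin2, Plin3, Plin4 and Plin5. Of these 9 genes, 8 had a row among the 10851 genes of the count table, and G0s2, an inhibitor of the Pnpla2 enzyme, was not analysed here. All 8 passed the filter on low counts, which removed no gene.

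The study asked how aerobic training alters the muscle transcriptome in cardiac cachexia, the loss of body and muscle mass in advanced heart failure. All animals were male Wistar rats. Sed rats received saline and stayed sedentary, and Ex rats received saline and trained on a treadmill. CC-Sed rats received a single intraperitoneal dose of monocrotaline and stayed sedentary, and CC-Ex rats received the same dose and trained. Monocrotaline is a plant alkaloid that injures the lung vessels and so overloads the right ventricle. All 4 groups, the sedentary ones included, were accustomed to the treadmill and ran an exhaustive test before and after the training period. Rats that died and monocrotaline rats without right ventricular remodeling were not part of the groups, so the CC groups hold survivors with an enlarged ventricle. An Ex rat that refused to exercise was left out as well. Each group held 6 rats, and each rat gave 1 library.

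Total counts per library lay between 37816239 and 50350554. The labelled tissue showed all 5 skeletal muscle markers (Acta1, Ckm, Des, Mb and Ttn), whose summed level lay between 49800 and 104400 CPM in the 24 rats. CPM is a count scaled by the TMM-adjusted library size, not by gene length. On the first principal component, which held 39.7% of the variance, CC-Ex replicate 5 stood apart at 96.5 units. CC-Sed replicate 4 and CC-Ex replicates 1 and 4 lay among the saline rats on it, at -16.3, -16.7 and -11.5 units. The calls in trained rats are given with and without CC-Ex replicate 5, and those of Pnpla2, Plin4 and Lipe also without the other 3 where a call changed.

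Triglyceride in muscle is stored in lipid droplets and released by lipases that act in order. Pnpla2 (adipose triglyceride lipase) removes the first fatty acid and is activated by Abhd5, Lipe (hormone-sensitive lipase) acts mainly on the diglyceride that remains, and Mgll (monoglyceride lipase) frees the last fatty acid from glycerol. The perilipins coat the droplet: Plin2 is found on droplets of most cells, Plin3 moves between cytosol and new droplets, Plin4 is abundant in fat and striated muscle, and Plin5 marks oxidative tissues, where it binds Pnpla2 and Abhd5 and tethers droplets to mitochondria.

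The promoter entries of Pnpla2 and Plin4 are shown because these 2 members passed the criteria for differential expression. That of Plin5 is shown because Plin4 and Plin5 are neighbouring genes on the same strand of chromosome 9. The windows of 300 bases reach from upstream of each gene's annotated start to shortly past it. Whether these starts are the ones used in this muscle was not checked. They are written 5′ to 3′ on the gene's strand and come from RefSeq on build GRCr8. They lie at chr1:205982029-205982328 on the plus strand for Pnpla2, at chr9:1024727-1025026 on the minus strand for Plin4 and at chr9:1033235-1033534 on the minus strand for Plin5. Capitals mark the matches to 6 motifs searched on both strands.
Pnpla2: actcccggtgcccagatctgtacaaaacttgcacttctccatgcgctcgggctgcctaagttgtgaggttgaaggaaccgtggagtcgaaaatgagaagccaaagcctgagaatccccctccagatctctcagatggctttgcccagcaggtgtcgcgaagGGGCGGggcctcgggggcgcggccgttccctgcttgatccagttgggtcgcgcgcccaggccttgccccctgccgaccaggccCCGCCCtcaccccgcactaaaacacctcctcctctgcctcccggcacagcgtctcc
Plin4: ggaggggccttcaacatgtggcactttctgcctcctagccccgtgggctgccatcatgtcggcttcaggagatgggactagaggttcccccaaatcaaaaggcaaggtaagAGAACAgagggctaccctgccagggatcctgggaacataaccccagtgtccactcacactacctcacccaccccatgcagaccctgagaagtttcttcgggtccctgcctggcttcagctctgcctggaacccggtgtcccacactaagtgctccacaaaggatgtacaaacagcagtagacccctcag
Plin5: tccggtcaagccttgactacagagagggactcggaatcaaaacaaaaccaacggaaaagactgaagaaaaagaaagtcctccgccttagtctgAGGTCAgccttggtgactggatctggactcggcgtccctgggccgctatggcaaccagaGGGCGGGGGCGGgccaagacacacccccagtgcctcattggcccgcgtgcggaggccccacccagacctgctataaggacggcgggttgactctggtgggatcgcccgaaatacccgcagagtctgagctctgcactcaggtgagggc

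The motifs were the FoxO core GTAAACA, the glucocorticoid half-site TGTTCT and the full glucocorticoid response element, in which this half-site follows its reverse complement after 3 bases, the nuclear receptor half-site AGGTCA and the PPAR element, in which it is repeated after 1 base, and the GC box GGGCGG. In both full elements any base was allowed in the gap. A full element also counts as its half-sites. Promoters were matched for 8 of the 9 members, G0s2 included, and Lipe was not among them. The FoxO core, found in 3.78% of all 33469 promoters of this length, was in 0 of the 8 windows, as were the full glucocorticoid element (0.0149% of all promoters) and the PPAR repeat (0.0538%). The Plin4 window held 1 glucocorticoid half-site, at position -139 from the annotated start on the opposite strand. Before that match it held an ATG followed by an open reading frame. The Plin4 window may therefore lie within the gene, and its match is not read as one in a promoter. The Mgll window held another half-site, so that 2 of 8 windows matched against 20.7% of all promoters. The nuclear receptor half-site was in 3 of 8 windows (Abhd5, G0s2 and Plin5) against 16.2% of all. The GC box was in 6 of 8 windows against 33.1% of all, with 2 matches in Pnpla2 and 2 adjoining ones in Plin5. The GC content was 63.7% for Pnpla2, 57% for Plin4 and 60% for Plin5, with a median of 51.7% over all promoters. These matches describe letters in the windows, and binding was not measured.

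In sedentary rats, monocrotaline was followed by higher RNA levels of the first lipase of the chain and of a muscle-abundant droplet coat protein. Protein was not measured. Pnpla2 rose 4.45-fold and Plin4 rose 2.30-fold. The other 6 members did not meet the criteria, which were an adjusted p-value under 0.05 and a Log2 fold change (Log2FC) of at least 1 in size. These 2 of 8 members, both higher, compare with 1.38% of all genes called higher in the same comparison. The median Log2FC of the 8 members was 0.92, and that of all genes was 0.02. The tissue was sequenced in bulk, so a change in the share of cells of a type and a change in RNA per cell cannot be told apart.

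Pnpla2 lay between 60.9 and 153 CPM in the Sed rats, with a median of 99.6. In CC-Sed rats it lay between 163 and 721 CPM, with a median of 521. The groups did not overlap, which held for 2.32% of all genes in the higher direction. Within CC-Sed, replicates 2 and 4 (163 and 203.5 CPM) lay just above the highest Sed rat, and the other 4 rats lay between 517.8 and 721 CPM. The Log2FC was 2.15 ± 0.44 (SE, n = 6 per group, 95% interval 1.24 to 3.07, edgeR adjusted p = 0.012).

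Plin4 lay between 132 and 340 CPM in Sed, with a median of 263. All 6 CC-Sed rats were above that range, at 443 to 768 CPM with a median of 544. The spread among CC-Sed rats was narrower than for Pnpla2, with a highest-to-lowest ratio of 1.73 against 4.42. The Log2FC was 1.20 ± 0.21 (SE, n = 6 per group, 95% interval 0.76 to 1.64, edgeR adjusted p = 0.00479).

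**Figure D1:**
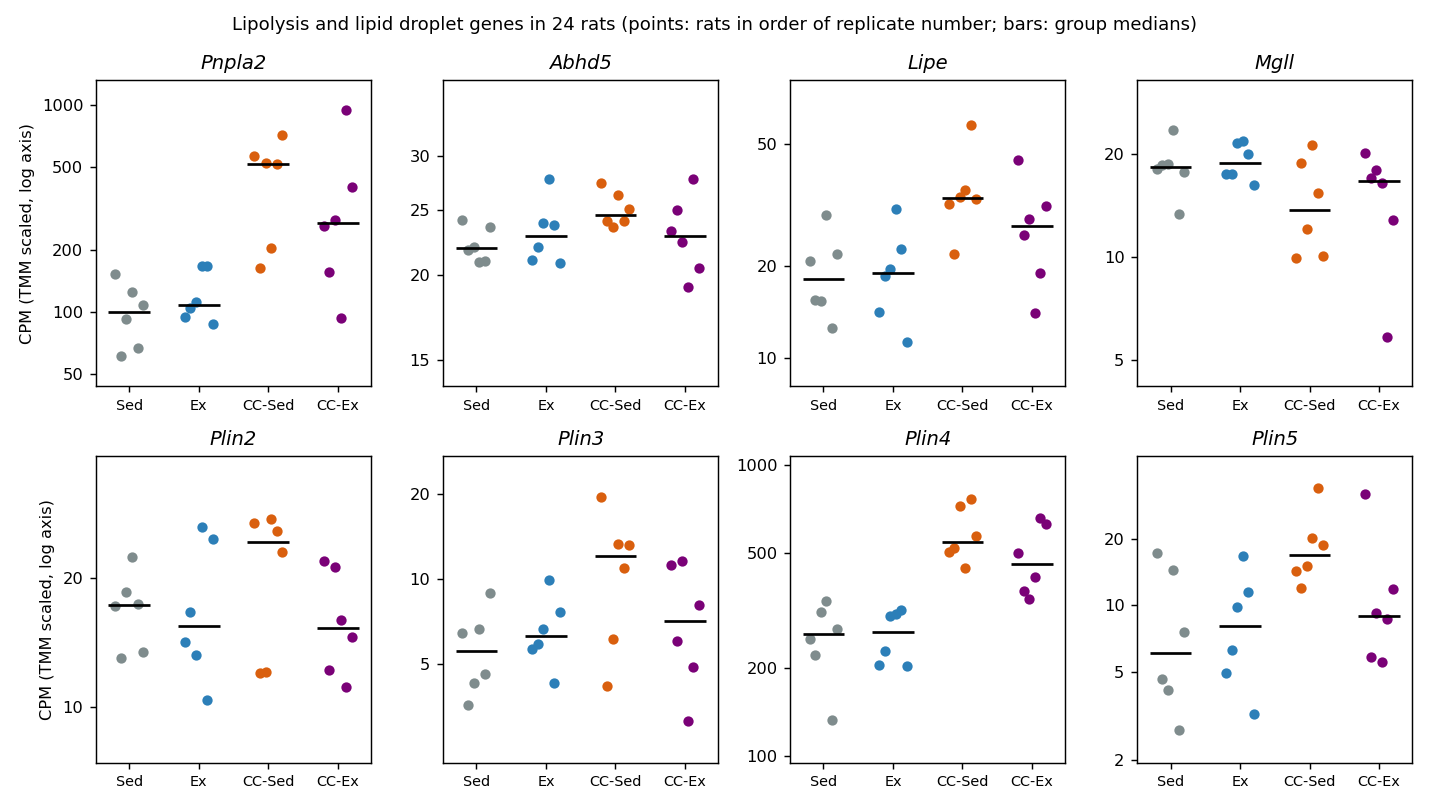
CPM of the 8 measured members in each of the 24 rats, on a log axis that differs between panels. Points are rats in order of replicate number within Sed, Ex, CC-Sed and CC-Ex, and bars are group medians. All CC-Sed rats lie above all Sed rats for Pnpla2 and Plin4, and all CC-Ex rats lie above all Ex rats for Plin4.

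Lipe, the second lipase, lay between 12.5 and 29.3 CPM in Sed (median 18.1) and between 21.8 and 57.8 CPM in CC-Sed (median 33.2). The groups overlapped by a single CC-Sed rat, replicate 2, and the other 5 were above the highest Sed rat. Its Log2FC of 0.89 ± 0.27 (SE, n = 6 per group) had an edgeR adjusted p of 0.0527. Across the 11 alternative analyses that kept all rats of the comparison, this value fell under 0.05 in 7, always with a Log2FC under 1. Without CC-Sed replicate 4 the Log2FC stayed at 0.89 (edgeR adjusted p = 0.0426). Without Sed replicate 4 it was 1.05 (edgeR adjusted p = 0.0426), which met both criteria, the single omission of 12 that did.

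Abhd5, the activator of Pnpla2, varied little. It lay between 20.97 and 24.1 CPM in Sed and between 23.5 and 27.3 CPM in CC-Sed. The Log2FC was 0.17, with a 95% interval of -0.01 to 0.35, so that an increase of more than 0.35 lay outside the interval. Mgll, the last lipase, was the single member with a negative Log2FC in this comparison (-0.33, 95% interval -0.80 to 0.13). Its median was 18.3 CPM in Sed and 13.8 CPM in CC-Sed, with overlapping ranges. The edgeR adjusted p-values were 0.197 for Abhd5 and 0.334 for Mgll.

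The other perilipins moved less clearly than Plin4. Plin5 ranged from 2.73 to 17.3 CPM in Sed (median 6.11), while the CC-Sed range was 12.0 to 33.7 CPM (median 16.8) and 3 of these 6 animals exceeded every Sed rat. Its Log2FC of 1.16 was close to that of Plin4, but the SE was 0.48 and the edgeR adjusted p was 0.123. Among the alternatives, limma-voom alone called it (Log2FC 1.46, adjusted p = 0.0325). Within Sed alone the highest Plin5 value was 6.35 times the lowest. Plin3 had ranges of 3.59 to 8.94 CPM (Sed) and 4.19 to 19.4 CPM (CC-Sed), with a Log2FC of 0.96 ± 0.34 (SE, edgeR adjusted p = 0.0775). It was called in 1 of 12 omissions, without CC-Sed replicate 2 (Log2FC 1.13, edgeR adjusted p = 0.0287). The ranges of Plin2 were 13.0 to 22.4 CPM (Sed) and 12.0 to 27.3 CPM (CC-Sed), with a Log2FC of 0.31 (95% interval -0.20 to 0.83, edgeR adjusted p = 0.410).

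In trained rats, RNA of the coat protein Plin4 was higher after monocrotaline with an adjusted p just under the threshold. The difference in Pnpla2 RNA did not pass it. The count of members called by the full criteria was 0 of 8 with edgeR, against 0.442% of all genes called higher, and 2 of 8 (Pnpla2 and Plin4) had an unadjusted p under 0.05, as did 22.6% of all genes. DESeq2 called 1 member, Pnpla2, and limma-voom called 0. On the adjusted p alone, 1 of 8 members (Plin4) was higher, against 0.875% of all genes. The median Log2FC of the members was 0.32, beside 0.01 over all genes.

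Plin4 lay between 204 and 316 CPM in Ex (median 266) and between 347 and 659 CPM in CC-Ex (median 456). The groups did not overlap, as for 0.737% of all genes in the higher direction. The Log2FC was 0.90 ± 0.21 (SE, n = 6 per group, 95% interval 0.46 to 1.33, edgeR adjusted p = 0.0409), under the size criterion. Without CC-Ex replicate 5, the rat apart on the first component, it was 0.78 with an adjusted p of 0.121 by edgeR. Across the 11 alternatives that kept all rats of the comparison, the adjusted p lay between 0.00312 (DESeq2) and 0.169 (edgeR on only the 12 rats) and was under 0.05 in 6.

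Pnpla2 was most variable in CC-Ex, with a highest-to-lowest ratio of 10.1, against 4.42 in CC-Sed. It lay between 87.2 and 167 CPM in Ex (median 107.8) and between 93.8 and 950.1 CPM in CC-Ex (median 270.1). CC-Ex replicate 5 held the highest value and replicate 4 the lowest, and 4 of 6 CC-Ex rats were above the highest Ex rat. The Log2FC was 1.55 ± 0.44 (SE, n = 6 per group, 95% interval 0.65 to 2.45, edgeR adjusted p = 0.0682). Single rats decided this call: without CC-Ex replicate 5 the Log2FC was 0.96 (edgeR adjusted p = 0.253), without replicate 4 it was 1.75 (0.0165) and without replicate 1 it was 1.63 (0.0451).

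The remaining 6 members had Log2FC values between -0.35 and 0.48 in the trained comparison, none with an adjusted p under 0.05. Lipe had a Log2FC of 0.48 (95% interval -0.09 to 1.04) and Plin5 of 0.47 (95% interval -0.52 to 1.46). The Plin5 value fell to -0.09 without CC-Ex replicate 1, whose level of 31.8 CPM stood above the other 5 rats (5.57 to 11.9 CPM). Abhd5 had a Log2FC of -0.013 (95% interval -0.19 to 0.17) and Plin2 of -0.12 (95% interval -0.63 to 0.39). Plin3 had a Log2FC of 0.16 (95% interval -0.53 to 0.85), and Mgll had one of -0.35 (95% interval -0.81 to 0.12). The signs for Abhd5, Plin2, Plin3 and Plin5 changed under at least 1 alternative analysis or omitted rat.

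**Figure D2:**
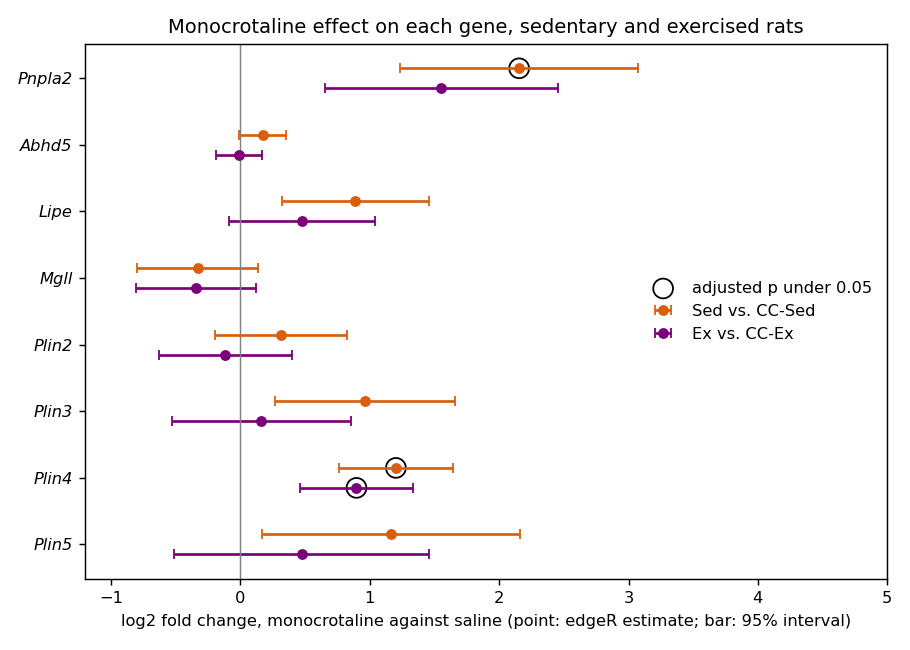
Log2FC of monocrotaline against saline for the 8 measured members in sedentary (Sed vs. CC-Sed) and trained (Ex vs. CC-Ex) rats. Points are edgeR estimates, bars are 95% intervals and circles mark an adjusted p under 0.05, which applies to Pnpla2 and Plin4 in sedentary rats and to Plin4 in trained rats.

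When the sedentary and trained effects were averaged in the same model, Pnpla2 (Log2FC 1.85 ± 0.31 SE, edgeR adjusted p = 5.6e-04) and Plin4 (1.05 ± 0.15, 2.2e-04) were DEGs. These 2 of 8 members compare with 2.06% of all genes called higher. Without CC-Ex replicate 5 the Plin4 value was 0.98 (edgeR adjusted p = 3.1e-04) and no longer reached the size criterion, whereas Pnpla2 was called at 1.54. Lipe had a Log2FC of 0.68 ± 0.19 (edgeR adjusted p = 0.0141), which made 3 of 8 members higher on the adjusted p alone, against 17.2% of all genes. Plin5 (0.82), Plin3 (0.56) and Mgll (-0.34) had edgeR adjusted p-values of 0.0711, 0.0761 and 0.109.

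The balance between members was followed as a log2 ratio within each rat, in which library scaling largely cancels. Only differences of a ratio between groups are read, because levels of different genes were not scaled by length. Both ratios hold Pnpla2, so their tests are not independent of its comparison above. Abhd5 had a Log2FC of 0.17 in sedentary and -0.013 in trained rats, so Pnpla2 over Abhd5 largely repeats Pnpla2. In trained rats Pnpla2 itself was not called (edgeR adjusted p = 0.0682). Pnpla2 over Abhd5, the lipase over its activator, was 2.11 ± 0.47 (SD) in Sed and 3.97 ± 0.88 in CC-Sed. The difference of 1.865 had a two-sided exact permutation p of 0.00216, the smallest that 6 against 6 rats can give, and 0.00866 after adjustment over the 4 ratio tests. All 6 CC-Sed values exceeded the median of Sed. In trained rats the ratio was 2.35 ± 0.29 in Ex and 3.57 ± 1.04 in CC-Ex, where it exceeded the Ex median in 6 of 6 rats, with a difference of 1.23 (exact permutation p = 0.0173, adjusted p = 0.0231). Without CC-Ex replicate 5 the difference was 0.92 (exact permutation p = 0.0238).

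Lipe over Pnpla2, the second lipase over the first, was lower in CC-Sed than in Sed. The mean log2 ratio was -2.37 ± 0.33 (SD) in Sed and -3.53 ± 0.77 in CC-Sed, a difference of -1.15 and 6 of 6 CC-Sed values were under the median of Sed (two-sided exact permutation p = 0.00866, adjusted p = 0.0173). In trained rats the difference was -0.76, and 4 of 6 CC-Ex values were under the median of Ex (two-sided exact permutation p = 0.108, adjusted p = 0.108). Without CC-Ex replicate 5, where the ratio was -5.65, the difference was -0.31.

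Training itself gave no called member. In saline rats the 8 Log2FC values of Sed vs. Ex lay between 0.02 and 0.27, with signs that changed for Lipe, Mgll, Plin2, Plin4 and Plin5 under at least 1 alternative or omitted rat. In monocrotaline rats (CC-Sed vs. CC-Ex) the values were -0.33 for Pnpla2 (95% interval -1.21 to 0.55), -0.28 for Plin4 (-0.71 to 0.16), -0.39 for Lipe (-0.96 to 0.17), -0.58 for Plin3 (-1.27 to 0.11), -0.38 for Plin2 (-0.90 to 0.13) and -0.64 for Plin5 (-1.63 to 0.34). Abhd5 had a value of -0.12 (-0.30 to 0.06), and Mgll was at 0.05, with a sign that changed between alternatives. In both comparisons edgeR called 0 of 8 members, 0 of 8 had an unadjusted p under 0.05, and DESeq2 and limma-voom also called 0. The share of all genes called by edgeR was 0% in both, and 1.09% and 2.16% of all genes had an unadjusted p under 0.05. The median Pnpla2 level was 521 CPM in CC-Sed and 270.1 CPM in CC-Ex, and the ranges overlapped in both directions, since the highest CC-Ex rat exceeded every CC-Sed rat.

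Whether the monocrotaline effect differed with training was tested as an interaction. The interaction Log2FC was -0.60 for Pnpla2 (95% interval -1.85 to 0.65), -0.31 for Plin4 (-0.92 to 0.31), -0.41 for Lipe (-1.21 to 0.38), -0.80 for Plin3 (-1.78 to 0.18) and -0.69 for Plin5 (-2.09 to 0.70). It was -0.43 for Plin2 (-1.16 to 0.29), -0.18 for Abhd5 (-0.44 to 0.07) and -0.01 for Mgll. With edgeR 0 of 8 members were called, 0 had an unadjusted p under 0.05, and 0% of all genes were called (1.42% at the unadjusted p), while DESeq2 and limma-voom also called 0. The call of Pnpla2 in sedentary but not in trained rats was therefore not a detectable difference between them.

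Leaving out each of the 12 rats of a comparison in turn showed how far the called members rest on single animals. In Sed vs. CC-Sed the Pnpla2 Log2FC was lowest at 1.95, when CC-Sed replicate 6 was omitted, and highest at 2.33, when CC-Sed replicate 2 was, and it was called in 12 of 12 omissions. Without CC-Sed replicate 4 it was 2.30. Plin4 stayed between 1.07 and 1.30 and was called in 12 of 12. In Ex vs. CC-Ex, Pnpla2 was called in 2 of 12 omissions, and Plin4 had an adjusted p under 0.05 in 4 of 12.

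**Figure D3:**
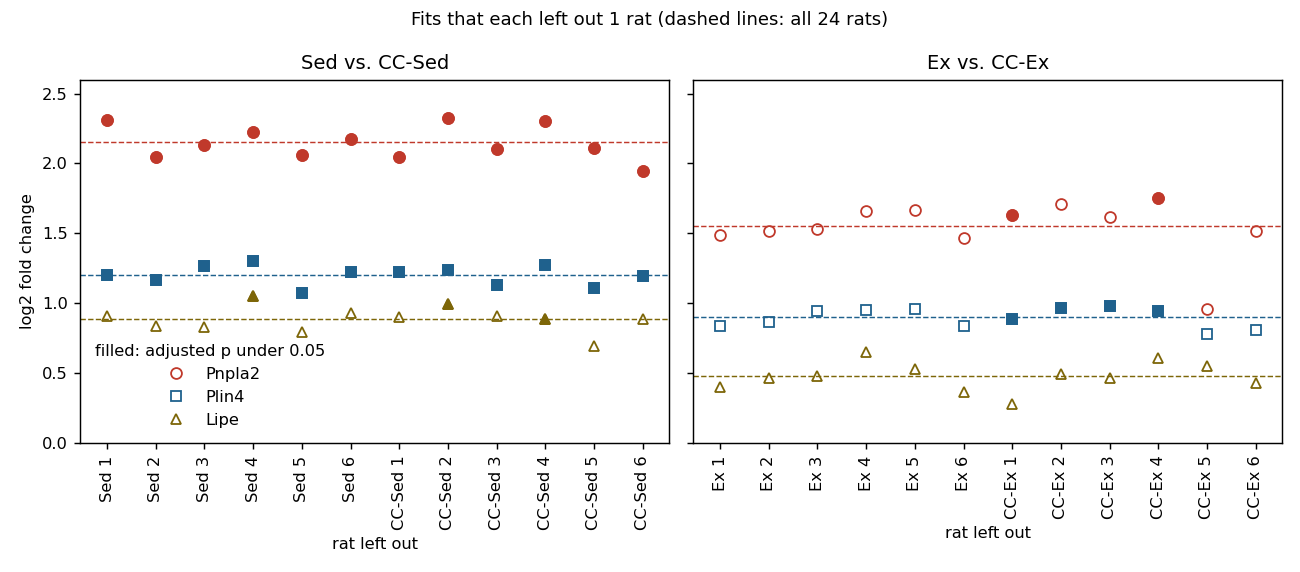
Log2FC of Pnpla2, Plin4 and Lipe when each rat of the comparison (horizontal axis) was left out in turn, with dashed lines for all 24 rats and filled symbols for an edgeR adjusted p under 0.05. The sedentary Pnpla2 values stay between 1.95 and 2.33, while the trained Pnpla2 value drops to 0.96 without CC-Ex replicate 5.

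Some pairs of members varied together among rats of the same group. After the group means were removed, 36 relations among members and with the slow-twitch marker score were tested by permuting rats within groups, with Benjamini-Hochberg adjustment over all 36. Of the 28 member pairs, 5 passed the adjusted threshold, and r lay near 0 for others, such as Pnpla2 with Plin2 (0.029) and Plin3 with Plin4 (-0.0078). The strongest was between Lipe and Plin5 (n = 24 rats, Pearson's r = 0.877, permutation p = 1e-05, the smallest these permutations can give, adjusted p = 3.6e-04, Spearman's rho = 0.88), and r was 0.858 without the 2 rats farthest from the median. Pnpla2 and Plin4, the called pair, had r = 0.613 and rho = 0.613 (permutation p = 0.00187, adjusted p = 0.0168), and r = 0.59 without 2 rats. Plin2 and Plin3 had r = 0.706 and rho = 0.741 (permutation p = 5.3e-04, adjusted p = 0.00954), and r = 0.608 without 2 rats.

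Weaker relations passed the adjusted threshold as well. Lipe and Plin3 had r = 0.593 and rho = 0.567 (permutation p = 0.00478, adjusted p = 0.0344), falling to 0.467 without 2 rats. Plin4 and its neighbouring gene Plin5 had r = 0.581 and rho = 0.549 (permutation p = 0.00742, adjusted p = 0.0445), and r = 0.551 without 2 rats. The lipase and its activator, Pnpla2 and Abhd5, had r = 0.504, which was 0.16 without 2 rats and so rested on them. Pnpla2 and Mgll had r = -0.605 (permutation p = 0.0251, adjusted p = 0.0862), which was -0.399 without 2 rats.

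**Figure D4:**
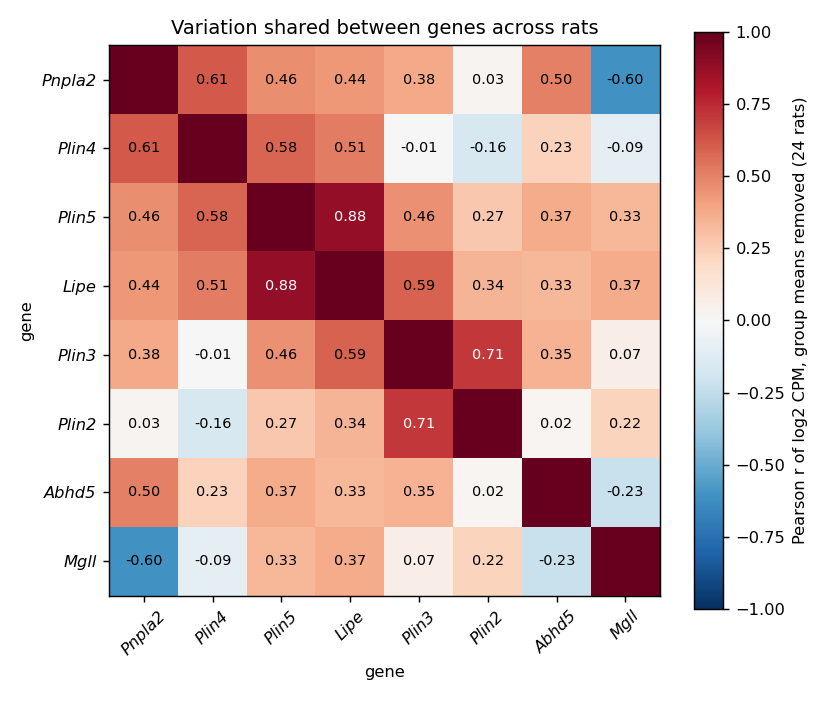
Pearson's r between members over 24 rats, from log2 CPM with the group means removed. Lipe with Plin5 (0.877) and Plin2 with Plin3 (0.706) are the strongest pairs, and Pnpla2 with Mgll is at -0.605.

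Over the whole table, the 3 genes most like Pnpla2 in this within-group variation were Clpx (r = 0.923), Pim3 (r = 0.913) and Anxa11 (r = 0.911). Clpx is a subunit of a mitochondrial matrix protease, Pim3 is a serine/threonine kinase and Anxa11 is a calcium-dependent phospholipid-binding protein. The 3 most like Plin4 were Ptp4a3 (r = 0.724), Pcnt (r = 0.704) and Ppp2r2a (r = 0.698). These values over 24 rats describe likeness only, since they were selected as the highest of the table. How far they rest on single rats, such as CC-Ex replicate 5, was not tested.

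Slow-twitch fibres hold more lipid than fast ones, and their markers were followed for that reason. In the table were 5 of 8 slow-twitch markers (Tnnc1, Tnni1, Myl3, Tpm3 and Atp2a2), and the defining myosin Myh7 was not analysed here. Their summed level ran from 769.9 to 4025 CPM among Sed rats (median 2070), from 1001 to 10710 in Ex (median 3675), from 1170 to 11810 in CC-Sed (median 6309) and from 684.9 to 9060 in CC-Ex (median 5410). All 5 had a positive Log2FC in Sed vs. CC-Sed, with a median of 1.70. None was called by edgeR, and 1 of 5 had an unadjusted p under 0.05. Over all 10851 genes, at least 2116 and fewer than 3385 had one in this comparison. With the marker score as a covariate, the sedentary Log2FC was 2.17 for Pnpla2 (edgeR adjusted p = 0.0134) and 1.18 for Plin4 (0.00844), close to the values without it. It was 0.62 for Lipe (edgeR adjusted p = 0.0381), 0.57 for Plin3 (0.0973), 0.90 for Plin5 (0.105) and 0.10 for Plin2 (0.778), all smaller than without it.

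The slow-twitch score was cut at its largest gap, between 6.65 and 8.04 log2 CPM, with 7 rats below it and 17 above. Gaps nearly as wide lay among the lower rats, at 3.36 to 4.71 and 5.32 to 6.65, so separate clusters were not shown. Over all 24 rats, with group means removed, r with the score was 0.774 for Plin3, 0.757 for Lipe, 0.579 for Plin5 and 0.514 for Plin2. It was 0.425 for Mgll, 0.222 for Abhd5, 0.188 for Pnpla2 and 0.104 for Plin4, and these values were not tested. Relations were tested within the 17 rats above the cut. There, Plin2 rose with the score (r = 0.796, permutation p = 0.00117, adjusted p = 0.014, rho = 0.694), with r = 0.648 without 2 rats. Plin3 had r = 0.71 (permutation p = 0.0135, adjusted p = 0.0694), which was 0.433 without 2 rats. Lipe had r = 0.379 (permutation p = 0.191) and Plin5 r = 0.365 (permutation p = 0.133). Pnpla2 had r = -0.143 (permutation p = 0.65) and Plin4 r = -0.2 (permutation p = 0.514), so no relation with the slow-twitch markers was detectable for the 2 called members.

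**Figure D5:**
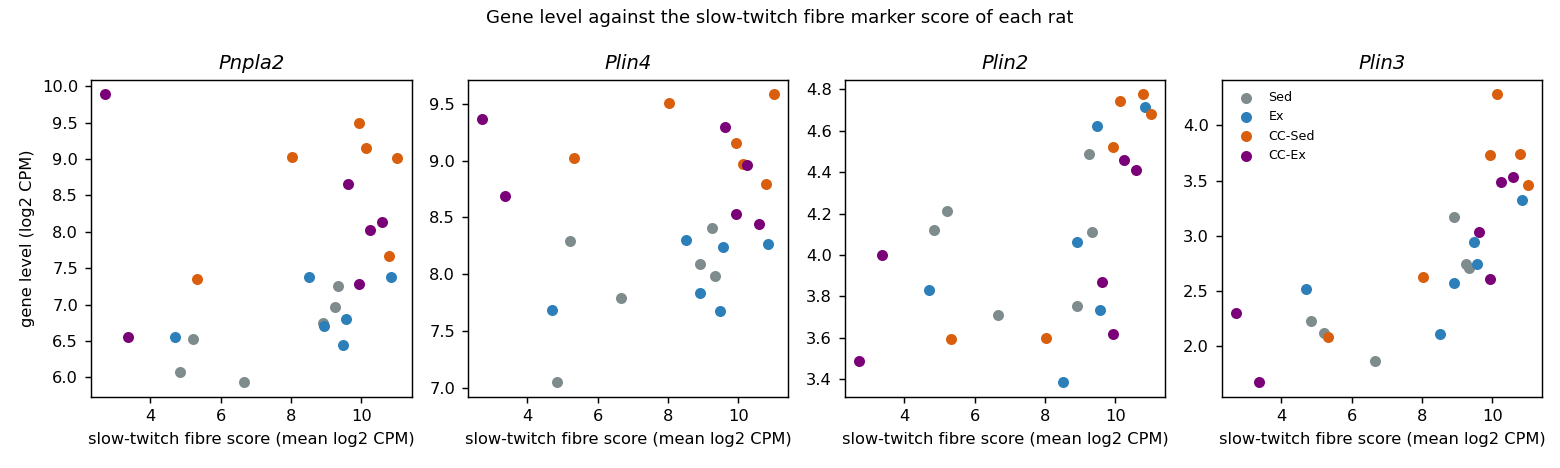
Levels (log2 CPM) of Pnpla2, Plin4, Plin2 and Plin3 against the slow-twitch marker score (mean log2 CPM of 5 markers) in 24 rats. Below the largest gap in the score lie 7 rats and above it 17, and Plin2 rises with the score among the 17.

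Markers of other droplet-holding cells were followed in the same way. Of 10 adipocyte markers 5 were in the table (Adipoq, Cfd, Fabp4, Pparg and Car3), and Plin1, Cidec, Cidea, Lep and Retn were not analysed here. Their summed level had medians of 3099, 3064, 3355 and 5002 CPM in Sed, Ex, CC-Sed and CC-Ex, within a range of 734.6 to 9483 CPM. In the averaged monocrotaline effect 2 of the 5 had a positive Log2FC, and the median was -0.006. The 1 called was Adipoq, which fell by 1.09 on the log2 scale (edgeR adjusted p = 0.0451). Of all 10851 genes, 313 were called in either direction in this effect. With the adipocyte score as a covariate, the sedentary Log2FC was 2.14 for Pnpla2 and 1.20 for Plin4. Of 8 macrophage markers 7 were in the table and 0 were called by edgeR in any comparison, nor had any an unadjusted p under 0.05, with summed medians of 51.5, 71.7, 80.3 and 48.5 CPM in the same order of groups. Fast-twitch markers (7 of 9 in the table) had summed medians of 135800, 135500, 92560 and 137600 CPM. By edgeR 0 were called, and 1 of 7 had an unadjusted p under 0.05 in Sed vs. CC-Sed, as did at least 2116 of all 10851 genes. With group means removed, the macrophage score over 24 rats had r = 0.49 with Plin3, 0.458 with Plin2 and -0.395 with Plin4. For the other members r was at most 0.0746 in size, and these values were not tested. Covariate fits were made for the slow-twitch and adipocyte scores only. The part of these cells in the results for Lipe, Plin3 and Plin5 was not tested beyond those fits.

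Other droplet proteins were described with a wider list of 30 genes, of which 20 were in the table. In Sed vs. CC-Sed 1 was called higher and 0 lower, beside 1.38% of all genes called higher. An unadjusted p under 0.05 was found for 6, beside at least 2116 and fewer than 3385 of all 10851 genes. The median Log2FC was -0.003 beside 0.02 over all genes. The called gene was Pnpla7, a lysophospholipase related to Pnpla2, with medians of 91.2 CPM in Sed and 348 CPM in CC-Sed and a Log2FC of 1.70 (edgeR adjusted p = 0.0319). It was called in 4 of 12 omissions, with a Log2FC of 1.55 to 1.90. In trained rats 0 of the 20 were called by edgeR while 5 had an unadjusted p under 0.05, beside 22.6% of all genes, and Pnpla7 had a Log2FC of 1.76 (adjusted p = 0.0552), which was 0.94 without CC-Ex replicate 5. In the averaged effect 4 of 20 were higher on the adjusted p alone, beside 17.2% of all genes, and 2 were lower. In either direction, 3017 of all 10851 genes passed on the adjusted p alone. Pnpla7 met both criteria (Log2FC 1.73, edgeR adjusted p = 0.00112).

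Steps upstream of the lipases were represented by 32 of 37 listed genes of hormone, cyclic AMP and insulin signalling. In Sed vs. CC-Sed 3 were higher and 1 lower, and in Ex vs. CC-Ex 2 were higher and 0 lower, with median Log2FC values of -0.002 and -0.07. Of all genes, 1.87% and 0.525% were called in either direction in these comparisons. Pde4d, which degrades cyclic AMP, rose by 1.49 on the log2 scale with monocrotaline in sedentary rats and by 1.41 in trained rats (edgeR adjusted p = 0.0105 and 0.0329). Pik3r1, the regulatory subunit of phosphoinositide 3-kinase, rose by 1.66 and 1.75 in the same comparisons (edgeR adjusted p = 0.0162 and 0.0329). Of the insulin receptor substrates, Irs2 rose by 1.96 in sedentary rats (edgeR adjusted p = 0.0416), whereas Irs1 fell by 1.48 (adjusted p = 0.0479), and these calls held in 4 and 3 of 12 omissions. In trained rats their Log2FC values were 1.03 and -0.71, with edgeR adjusted p-values of 0.254 and 0.316. Without CC-Ex replicate 5 the trained values of Pde4d and Pik3r1 were 1.13 and 1.38 and were no longer called (edgeR adjusted p = 0.0882 and 0.0984). Their trained calls held in 4 and 2 of 12 omissions, and their sedentary calls in all 12.

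The opposite arm, triglyceride synthesis, had 15 of 17 listed genes in the table and a median Log2FC of 0.34 in sedentary and 0.12 in trained rats. In Sed vs. CC-Sed 1 gene was called higher and 0 lower, beside 1.38% of all genes called higher. An unadjusted p under 0.05 was found for 10 of 15, beside at least 2116 and fewer than 3385 of all 10851 genes. The called gene was Dgat2, which makes triglyceride from diglyceride, with medians of 28.96 CPM in Sed and 95.4 CPM in CC-Sed. Its Log2FC was 1.56 (edgeR adjusted p = 0.016). In trained rats 0 of 15 were called by edgeR while 3 had an unadjusted p under 0.05, beside 22.6% of all genes. Dgat2 had a Log2FC of 0.12 there (edgeR adjusted p = 0.843). In the interaction 0 of 15 were called by edgeR, and 2 had an unadjusted p under 0.05, beside 1.42% of all genes. Lpin1, which makes diglyceride from phosphatidate, was called in the averaged effect (Log2FC 1.21, edgeR adjusted p = 0.00718), but not without CC-Ex replicate 5 (0.78, 0.00921), which took it under the size criterion. Its Log2FC was 0.88 in sedentary and 1.54 in trained rats, with edgeR adjusted p-values of 0.175 and 0.068.

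Transcription factors known to act on lipolysis genes were all measured, 14 of 14. In each of the 2 monocrotaline comparisons 4 were called higher and 0 lower, beside 1.38% and 0.442% of all genes called higher, with median Log2FC values of 0.46 in sedentary and 0.24 in trained rats. The 4 genes were the same in both, Foxo1, Foxo3, Klf15 and Cebpd. Foxo1, a factor restrained by insulin signalling that is known to raise Pnpla2 transcription, had medians of 12.3 CPM in Sed and 63.4 CPM in CC-Sed, with a Log2FC of 2.40 (edgeR adjusted p = 0.0138), and a Log2FC of 2.45 in trained rats (0.0329). Cebpd had values of 2.58 (edgeR adjusted p = 0.0147) and 2.68 (0.0329), and Foxo3 had values of 1.62 (0.0137) and 1.52 (0.0350). Klf15, a glucocorticoid-responsive factor, had values of 1.39 (edgeR adjusted p = 0.0236) and 1.68 (0.0324). Without CC-Ex replicate 5 none of the 4 was called in trained rats, at Log2FC values of 1.94 for Foxo1, 2.23 for Cebpd, 1.05 for Foxo3 and 1.20 for Klf15, with edgeR adjusted p-values between 0.0767 and 0.111. The trained calls held in 3 to 4 of 12 omissions. The sedentary calls held in 12 of 12 for Foxo1, Cebpd and Foxo3 and in 6 of 12 for Klf15, and the averaged effect was called for all 4 genes without CC-Ex replicate 5. The binding of these factors to the windows shown above was not measured.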

How the data were processed

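Poly-A RNA of the medial gastrocnemius was sequenced from 24 rats, and groups and replicate numbers were taken from the sample labels. Per the methods and the submitters' processing notes, reads were trimmed with Trim Galore, quantified with Salmon on the rat transcriptome (mRatBN7.2) and summed to genes with tximport. The deposited values are estimated counts that the authors gave as whole numbers, not scaled for library size, with none under 10. No further rounding was therefore needed. Total counts lay between 37816239 and 50350554, so the precision was limited by differences between animals.

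Counts were scaled by TMM and fitted over all 10851 genes and 24 rats in a quasi-likelihood model of the 4 groups (R 4.3.3, edgeR 4.0.16), with Benjamini-Hochberg adjustment over all genes. DEGs were genes with a Log2FC beyond 1 in either direction and an adjusted p under 0.05. The SE was the size of the Log2FC divided by the square root of F. The filter on low counts removed 0 genes. Ratios, scores and correlations used log2 CPM with a prior count of 2 and two-sided exact or 100000-fold permutation tests. Alternatives were DESeq2 1.42.0, limma-voom (limma 3.58.1), other scalings and filters, covariates, a replicate block and omission of each rat. The library number, which opens each library name, was not balanced over the groups. It ran from 9 to 24 in Sed, 7 to 23 in Ex, 4 to 21 in CC-Sed and 1 to 14 in CC-Ex. What it stands for is not stated in the labels. The model was tested on simulated data.

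All members were named in each comparison. From each other list, at most 4 called genes were named, by the smallest p of the averaged monocrotaline effect. The 3 genes most like each called member were also named. The members and lists were chosen with earlier results of these data known. Per the methods rats were housed in pairs, and the labels do not say which rats shared a cage or a litter. The tests treated each rat as independent. No other columns of samples were in the table. Coordinates of promoters are on GRCr8, and none were taken on mRatBN7.2.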

Additional observations from a re-analysis of the deposited data

Results flagged for a closer look

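Among 40 groups of 6 rats examined for the members and their ratios, 2 held a rat whose gap to its nearest neighbour was a large part of the group's range by Dixon's criterion. Chance gives such a gap in about 1 in 20 groups. Both came from CC-Ex replicate 5, the rat apart on the first principal component. Its Mgll level was 5.84 CPM, and the other 5 CC-Ex rats lay between 12.9 and 20.3 CPM. Its log2 ratio of Lipe over Pnpla2 was -5.65, and the others lay between -3.69 and -2.55. The same rat had the highest Pnpla2 level of the series, 950.1 CPM.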

How the results depend on the processing

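Pnpla2 and Plin4 were called in Sed vs. CC-Sed under all 11 alternatives that kept every rat and all 12 omissions. The count there was 2, but 3 with limma-voom (Plin5 added) and 2 to 3 when a rat was left out (Lipe without Sed replicate 4, Plin3 without CC-Sed replicate 2). In Ex vs. CC-Ex the count of called members was 0, and it was 1 with DESeq2, 1 on the adjusted p alone and 0 to 1 when a rat was left out. In the averaged effect it was 2, but 1 with upper-quartile scaling and 1 to 2 when a rat was left out. Over all genes, Ex vs. CC-Ex gave 57 DEGs, but 214 with DESeq2, 133 with limma-voom, 108 on the adjusted p alone, 36 with the library number as a covariate, 20 with upper-quartile scaling and 1 with only its 12 rats. Sed vs. CC-Sed gave 203 DEGs, but 318 with DESeq2, 383 with limma-voom, 333 with the slow-twitch score and 701 on the adjusted p alone, and the averaged effect 313 and 3017. When a rat was left out, Sed vs. CC-Sed gave 73 (without CC-Sed replicate 6) to 404 (without CC-Sed replicate 4) DEGs. Ex vs. CC-Ex gave 2 or 3 without any of the 6 Ex rats or CC-Ex replicates 5 or 6, 30 and 36 without CC-Ex replicates 3 and 2, and 201 and 251 without CC-Ex replicates 1 and 4. The causes were not tested.

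Signs changed as follows. In Ex vs. CC-Ex, Abhd5 was 0.060 with total counts and 0.017 with the adipocyte score, and Plin2 was 0.077 with limma-voom. Ranges over omitted rats were -0.084 to 0.045 for Abhd5, -0.23 to 0.032 for Plin2, -0.0039 to 0.32 for Plin3 and -0.090 to 0.76 for Plin5. Abhd5 was -0.0020 in the averaged effect with upper-quartile scaling. In CC-Sed vs. CC-Ex, Mgll was -0.083 with the library number, and -0.056 to 0.22 over omitted rats. In the interaction, Mgll was 0.0025 with DESeq2, 0.019 with upper-quartile scaling, 0.031 with total counts, 0.0059 with a mean of at least 5 CPM, 0.23 with limma-voom, 0.10 with the slow-twitch score, 0.034 with the adipocyte score and -0.12 to 0.16 over omitted rats. In Sed vs. Ex the alternatives ran from -0.15 to 0.036 for Lipe, -0.0088 to 0.081 for Mgll, -0.098 to 0.057 for Plin2 and -0.11 to 0.20 for Plin5, and omissions from -0.10 to 0.13 for Plin4. The Lipe over Pnpla2 difference in trained rats ran from -0.93 to -0.31 over omitted rats, with an exact permutation p of 0.0368 without CC-Ex replicate 1 and 0.0433 without CC-Ex replicate 2.

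The replicate numbers did not pair the rats: deviations of same-numbered rats had mean correlations of 0.0947 for Sed and CC-Sed and -0.172 for Ex and CC-Ex, and 2 and 0 of 6 rats correlated best with their own number. With the replicate block, Plin4 in Ex vs. CC-Ex had a Log2FC of 0.90 (edgeR adjusted p = 0.0761), DEGs over all genes numbered 172 in Sed vs. CC-Sed and 1 in Ex vs. CC-Ex, and the trained Pnpla2 over Abhd5 difference of 1.23 had an exact sign-flip p of 0.0625.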
